A study of Mus musculus with 22 samples.

Results

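The 38 genes described here encode lysosomal enzymes, membrane proteins of the lysosome, subunits of its proton pump and TFEB, a regulator of lysosomal genes. They were taken by symbol, and all 38 were found once each among the 41388 genes counted in 22 libraries. RNA was sequenced from stromal cells of mammary tumors grown in C57BL/6 mice given as postnatal day 56, which the labels call orthotopic MMTV-BO1 tumors and the study's results section subcutaneous PyMT-BO1 tumors. The study's methods describe injection of PyMT cells into the mammary fat pad. Mice labelled wild type carried the Osx-cre transgene, in which a doxycycline-repressible Cre is driven by the promoter of *Sp7*, together with the Ai9 reporter, which leaves TdTomato (TdT) in cells with past Cre activity and in their progeny. Libraries of both genotypes are titled Osx+ or Osx-, and the Cre of the knockout mice is taken here to be the same. The cells had been sorted by TdT and CD45 into TdT single positive, double positive, CD45 single positive and double negative populations. Of the 22 libraries, 11 came from Osx-cre;Ai9 mice labelled wild type (WT) and 11 from Cdh2-cKO;Ai9 mice, in which *Cdh2* (N-cadherin) is a conditional knockout. The study states that Osx-cre;Ai9 mice fed doxycycline until weaning, which holds the Cre off until then, were used after its first experiments. It does not describe the Cdh2-cKO mice. In each genotype, 2 libraries were made from TdT single positive cells and 3 from each of the others. The comparisons asked how the genes differ between CD45+ and CD45- cells, with TdT within each of these, and between the genotypes.

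Lysosomes break down proteins, glycans and lipids that arrive by phagocytosis, endocytosis and autophagy. Their hydrolases work at acid pH, which is kept by the vacuolar ATPase, a pump built from a membrane sector (V0) and a cytosolic sector (V1). Many lysosomal genes carry E-box sites of the CLEAR type in their promoters, through which TFEB and its relatives TFE3, MITF and TFEC can raise them together. Macrophages are rich in lysosomes, while fibroblasts use the same enzymes for autophagy and for turnover of matrix that they take up.

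The members' promoters were searched for the E-box at the core of the CLEAR site. Because many lysosomal genes carry this site, its share among them describes the list and does not test shared regulation. RefSeq promoter windows on GRCm38.p6, from 250 bases before to 50 after the start of transcription, were matched by symbol for 31 of the 38 members, in 38 windows. The word CACGTG, which reads the same on both strands, occurred in the windows of 13 of the 31 members (41.9%), against 8.09% of 27025 genes in all. By window, it occurred in 13 of the members' 38 windows, against 7.15% of 32851 windows in all. The longer word TCACGTGA, also the same on both strands and containing CACGTG, occurred in 7 of the 31 members (22.6%) and in 1.12% of all genes. At least 2 copies of CACGTG were found in 6 members and in 0.681% of all genes. All genes here are those with a window, whether or not they were tested below. The windows below are printed to 30 bases after the start, in lower case with each CACGTG in capitals. The first 4 belong to members with several copies close to the start, *Ctss* is the member with the largest difference between CD45+ and CD45- cells, and *Ctsl* is 1 of the 2 members that were lower in CD45+ cells.
Lamp1 (chr8:13158911-13159190, plus strand): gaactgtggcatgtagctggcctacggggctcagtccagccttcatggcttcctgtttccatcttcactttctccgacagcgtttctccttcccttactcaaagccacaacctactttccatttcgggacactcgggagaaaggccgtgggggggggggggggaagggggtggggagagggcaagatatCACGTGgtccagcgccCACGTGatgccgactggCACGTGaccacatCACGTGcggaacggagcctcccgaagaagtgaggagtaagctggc
Mcoln1 (chr8:3500269-3500548, plus strand): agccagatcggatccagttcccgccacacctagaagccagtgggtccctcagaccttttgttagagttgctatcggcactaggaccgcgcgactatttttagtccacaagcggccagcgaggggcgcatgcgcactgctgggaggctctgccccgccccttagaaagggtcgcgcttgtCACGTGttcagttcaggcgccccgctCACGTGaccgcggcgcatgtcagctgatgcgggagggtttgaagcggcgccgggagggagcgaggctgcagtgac
Ctsa (chr2:164833523-164833802, plus strand): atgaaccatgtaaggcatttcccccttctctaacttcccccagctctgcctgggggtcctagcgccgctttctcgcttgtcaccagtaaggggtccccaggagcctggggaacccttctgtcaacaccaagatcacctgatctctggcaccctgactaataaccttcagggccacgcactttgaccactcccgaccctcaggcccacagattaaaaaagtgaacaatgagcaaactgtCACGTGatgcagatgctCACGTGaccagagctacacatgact
Atp6v0b (chr4:117887300-117887579, minus strand): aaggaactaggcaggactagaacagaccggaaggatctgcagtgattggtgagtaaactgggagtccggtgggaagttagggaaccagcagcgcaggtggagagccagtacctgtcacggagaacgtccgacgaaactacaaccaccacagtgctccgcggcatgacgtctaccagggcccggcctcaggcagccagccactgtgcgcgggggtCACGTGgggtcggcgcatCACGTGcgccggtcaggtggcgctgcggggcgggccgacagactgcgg
Ctss (chr3:95526536-95526815, plus strand): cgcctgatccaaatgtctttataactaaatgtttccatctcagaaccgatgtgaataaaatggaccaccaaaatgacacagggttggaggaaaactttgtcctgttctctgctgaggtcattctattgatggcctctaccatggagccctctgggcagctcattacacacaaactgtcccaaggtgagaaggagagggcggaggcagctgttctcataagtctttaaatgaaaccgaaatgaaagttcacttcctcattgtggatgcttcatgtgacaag
Ctsl (chr13:64370491-64370770, minus strand): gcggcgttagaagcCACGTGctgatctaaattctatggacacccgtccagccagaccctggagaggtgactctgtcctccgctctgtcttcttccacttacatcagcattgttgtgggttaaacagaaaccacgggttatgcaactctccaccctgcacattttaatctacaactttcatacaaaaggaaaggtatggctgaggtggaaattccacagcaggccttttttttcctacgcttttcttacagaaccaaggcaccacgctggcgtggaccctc
Counting from the start of transcription to the first base of the word, *Lamp1* held 4 copies, at -61, -45, -28 and -15. *Mcoln1* held copies at -71 and -45, *Atp6v0b* at -36 and -18, and the printed window of *Ctsa* held them at -12 and 6. The other *Ctsa* window, chr2:164832622-164832921, held 0 copies, and the window with most copies was printed. The copy in *Ctsl* lay at -236, and the *Ctss* window held none. Of the 13 members with the word, 9 were higher in CD45+ cells, 2 lower and 2 not called, with a median log2 fold change of 1.08 in the comparison given below. All 18 matched members without it were higher, with a median of 1.34. The RefSeq starts used for the windows can differ from the gene ends given below, which were deposited with the counts. A match is a description of these letters, and binding was not measured.

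The libraries held 16594228 to 26784003 gene counts each. Levels are given as normalized CPM, which are CPM of the library size after edgeR's TMM scaling, and as normalized RPKM, the same per kilobase of exon, where genes are compared with each other. By the marker lists used here, 3 libraries stood apart. They are named beside some of the results that they affect. Ranges and fold changes given without naming them include them unless stated. WT CD45 single positive replicate 2 had a sum of 10 macrophage markers of 7053 normalized CPM, where the other CD45+ libraries had 29001 to 52212, and it led all libraries in T and B cell markers. Among CD45- libraries, WT double negative replicate 3 had 19092 and Cdh2-cKO TdT single positive replicate 1 had 12987, the others 168 to 5857. The sum of 7 fibroblast markers was 4276 to 58525 in CD45- and 60.1 to 211 in CD45+ libraries, and the sum of 5 epithelial tumor markers was 33.2 to 2071 in CD45- and 129 to 469.7 in CD45+ libraries. *Ptprc*, which encodes CD45, had 465 to 1691 normalized CPM in CD45+ and 2.40 to 337 in CD45- libraries. *Sp7*, whose promoter drives the Cre, had 3 counts over all libraries, so its transcript was near or below what this depth can detect in every population. In CD45- cells *Cdh2* was not lower but higher in every library labelled Cdh2-cKO than in any labelled WT. The TdT single positive libraries had 12.5 and 16.8 normalized CPM labelled Cdh2-cKO and 4.89 and 8.95 labelled WT. The double negative libraries had 13.1 to 19.1 labelled Cdh2-cKO and 4.51 to 7.47 labelled WT. The double positive libraries had 0 to 0.598 with 18 counts in all labelled Cdh2-cKO and 0.343 to 0.689 with 26 counts labelled WT, too few to compare. Whether the counted exons include the deleted part is not given in the sources used here, and the cause of the higher level was not tested. These values do not verify the genotypes, which are used as labelled. All samples are bulk RNA, in which fewer cells of a type and less RNA per cell cannot be told apart.

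The 38 genes together made up a larger share of the reads in CD45+ than in most CD45- libraries. Their share had a median of 4.29% in double positive libraries (3.60% to 4.85%) and 4.32% in CD45 single positive libraries (2.41% to 4.82%). It had a median of 1.99% in TdT single positive libraries (1.51% to 3.26%) and 1.59% in double negative libraries (1.38% to 3.73%). The libraries with the lowest CD45+ share and the highest CD45- shares were the 3 that stood apart. Per kilobase, the cysteine protease gene *Ctss* had the highest mean of the 38 in CD45+ cells (5612 normalized RPKM), followed by *Ctsb* (1743), *Ctsz* (1572) and *Ctsd* (1340.5). In CD45- cells *Ctsl* came first (996), ahead of *Ctsb* (924), *Ctss* (845) and *Ctsd* (548). *Tfeb* was last in both, at 0.764 and 0.303 normalized RPKM.

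**Figure D1:**
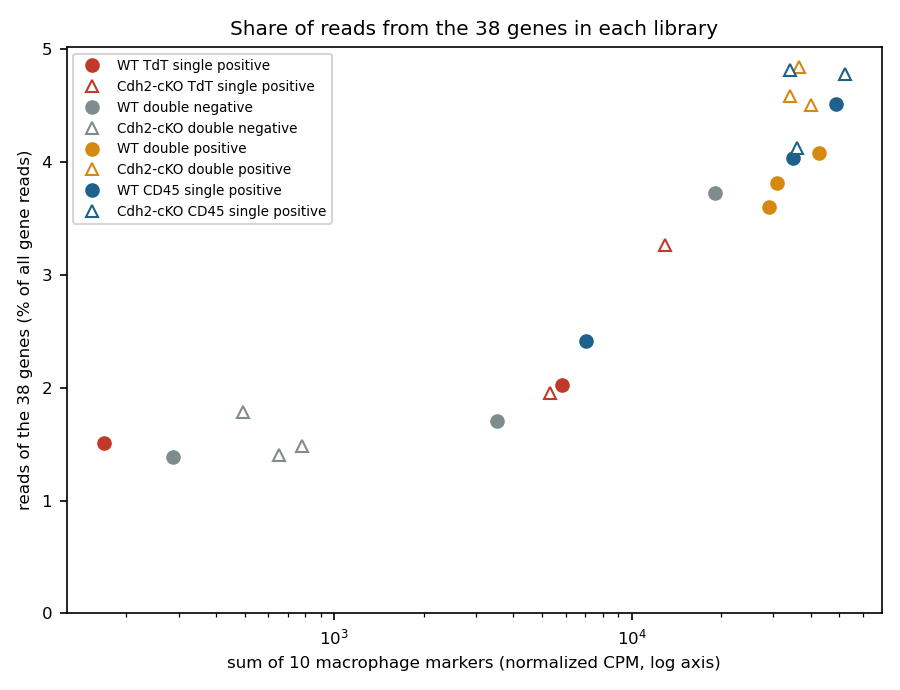
Share of gene reads that came from the 38 genes (y axis, percent) against the sum of 10 macrophage markers in each library (x axis, normalized CPM, log scale), with 1 point per library coloured by population, filled circles for WT and open triangles for Cdh2-cKO. The 5 libraries with the lowest marker sums lie between 1.38% and 1.78%, and the CD45+ libraries other than WT CD45 single positive replicate 2 lie between 3.60% and 4.85%.

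Comparing both CD45+ with both CD45- populations, 34 of the 38 members were higher in CD45+ cells and 2 were lower, *Gaa* and *Ctsl*. All 38 passed the filter on low counts. Of the 15018 genes tested, 31.2% were higher and 32.1% lower in this contrast (edgeR's quasi-likelihood test, Benjamini-Hochberg adjusted p of at most 0.05). The median log2 fold change was 1.15 over the members and 0.03 over all genes tested. *Glb1* and *Mcoln1* were not called. At a log2 fold change of at least 2 as well, 5 members were higher, against 8.5% of all genes. Every CD45+ library lay above every CD45- library for 1 member, *Neu1* (3.28% of all genes), and for 31 members once the 3 libraries that stood apart were left out (13.9% of all genes). Without those libraries 34 members were again higher and 2 lower, with a median of 1.39. WT CD45 single positive replicate 2 was the lowest of the 12 CD45+ libraries for 32 of the 38 members, and WT double negative replicate 3 was the highest of the 10 CD45- libraries for 26. Macrophage markers moved with the same contrast, and their part in it was not tested.

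**Figure D2:**
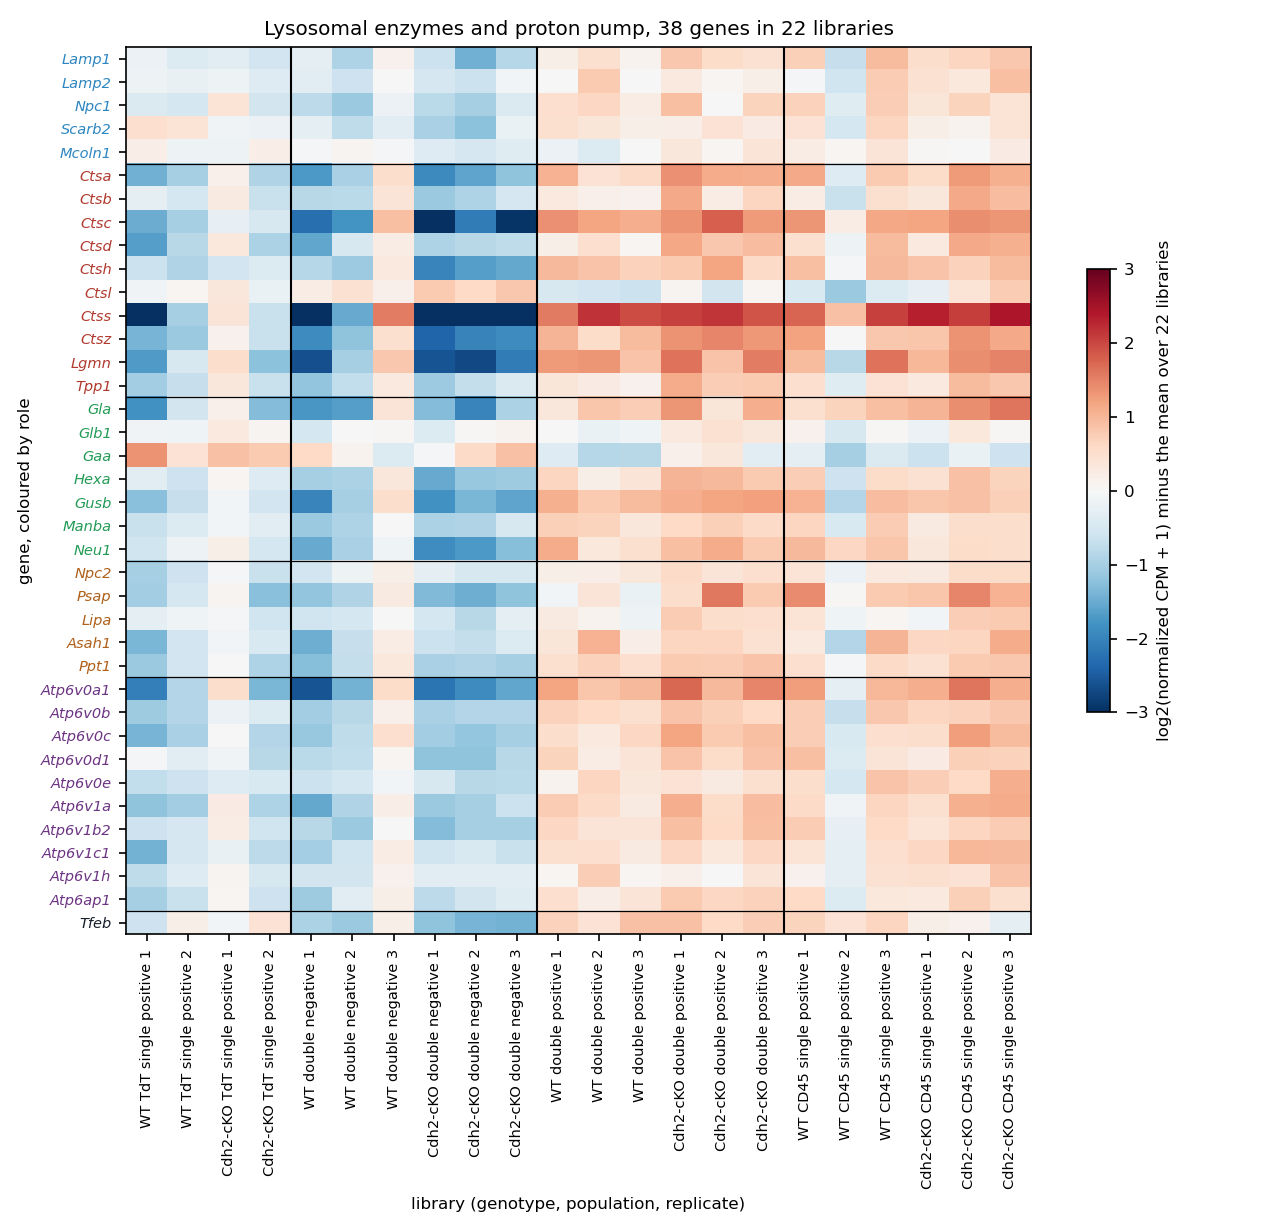
Levels of the 38 genes (rows, grouped and coloured by role) in the 22 libraries (columns, by population and genotype), as log2 of normalized CPM plus 1 minus the gene's mean over the libraries. Red CD45+ columns and blue CD45- columns are seen in most rows, while *Gaa* and *Ctsl* are reversed, and WT CD45 single positive replicate 2 and WT double negative replicate 3 differ from the other columns of their population.

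Of the 5 membrane proteins, 4 were higher in CD45+ cells. *Lamp1* (ENSMUSG00000031447, chromosome 8 from 13159135 to 13175338), a main glycoprotein of the lysosomal membrane, had normalized CPM of 194 and 164 in WT and 176 and 147 in Cdh2-cKO TdT single positive libraries, and 178, 115 and 238 in WT and 139, 79.7 and 119.9 in Cdh2-cKO double negative libraries. Its CD45+ libraries had 249, 308 and 237 in WT and 386, 321 and 301 in Cdh2-cKO double positive libraries, and 358, 135 and 424 in WT and 317, 345 and 383 in Cdh2-cKO CD45 single positive libraries. WT CD45 single positive replicate 2 lay among the CD45- libraries, WT double negative replicate 3 lay just above the lowest double positive library, and the log2 fold change was 1.01 ± 0.18 (SE; adjusted p = 0.000107). *Lamp2* (ENSMUSG00000016534, chromosome X from 38401357 to 38456454), which also serves in chaperone-mediated autophagy, had normalized CPM of 600.1 and 571 in WT and 601 and 515 in Cdh2-cKO TdT single positive libraries, and 531, 436 and 680.5 in WT and 471, 426 and 634 in Cdh2-cKO double negative libraries. In CD45+ cells it had 671, 1160.4 and 679.8 in WT and 823, 697 and 762 in Cdh2-cKO double positive libraries, and 644, 440.1 and 1136 in WT and 929, 843 and 1262 in Cdh2-cKO CD45 single positive libraries. The groups overlapped at their edges and the difference was smaller, with 0.59 ± 0.164 (SE; adjusted p = 0.0044). *Scarb2* (ENSMUSG00000029426, chromosome 5 from 92443873 to 92505608), the receptor that carries glucocerebrosidase to lysosomes, had normalized CPM of 43.8 and 40.8 in WT and 28.5 and 26.9 in Cdh2-cKO TdT single positive libraries, and 24.6, 17.6 and 24.3 in WT and 15.1, 12.5 and 26.5 in Cdh2-cKO double negative libraries. Levels in CD45+ cells were 43.1, 39.6 and 34.5 in WT and 35.04, 41.5 and 36.7 in Cdh2-cKO double positive libraries, and 41.5, 20.8 and 48.6 in WT and 34.9, 33.2 and 40.9 in Cdh2-cKO CD45 single positive libraries. The WT TdT single positive libraries lay among the CD45+ libraries, the Cdh2-cKO ones only above WT CD45 single positive replicate 2, and the contrast gave 0.52 ± 0.151 (SE; adjusted p = 0.00608).

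*Mcoln1* (ENSMUSG00000004567, chromosome 8 from 3500457 to 3515232), the calcium channel TRPML1, was low in every population. It had normalized CPM of 10.4 and 7.89 in WT and 7.85 and 10.3 in Cdh2-cKO TdT single positive libraries, and 8.63, 9.36 and 8.48 in WT and 6.59, 5.99 and 6.68 in Cdh2-cKO double negative libraries. CD45+ libraries showed 7.70, 6.40 and 8.92 in WT and 11.4, 9.28 and 11.9 in Cdh2-cKO double positive libraries, and 10.4, 9.21 and 11.96 in WT and 9.15, 8.82 and 10.7 in Cdh2-cKO CD45 single positive libraries. The groups overlapped over most of their range and the log2 fold change of 0.21 ± 0.108 (SE; adjusted p = 0.0998) missed the threshold. *Npc1*, which moves cholesterol out of the lysosome, had a lowest, median and highest level of 21.2, 31.9 and 62.8 normalized CPM in CD45- and 36.1, 70.1 and 88.95 in CD45+ libraries, with 0.97 ± 0.176 (SE; adjusted p = 0.000128).

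All 10 proteases differed between CD45+ and CD45- cells, 9 of them higher, and their median log2 fold change of 1.70 was above that of the other roles with more than 1 member. *Ctss* (ENSMUSG00000038642, chromosome 3 from 95526786 to 95556403), the cathepsin that cleaves the invariant chain in antigen-presenting cells, had normalized CPM of 34.01 and 970.3 in WT and 2519.7 and 1215 in Cdh2-cKO TdT single positive libraries, and 64.9, 677 and 5566 in WT and 139.9, 189.97 and 102 in Cdh2-cKO double negative libraries. Among the CD45+ libraries, it had 5658, 8710.1 and 7439 in WT and 7964, 8478 and 7095 in Cdh2-cKO double positive libraries, and 6489, 3533 and 8033 in WT and 9636, 8121 and 10296 in Cdh2-cKO CD45 single positive libraries. Within CD45- cells it spanned from 34.01 to 5566 and was highest in the libraries with most macrophage markers, and the contrast gave 3.37 ± 0.62 (SE; adjusted p = 0.000157), or 10.3-fold. Without the 3 libraries that stood apart it was 4.17 ± 0.691 (SE), and without the 2 WT libraries among them 4.06 ± 0.537 (SE). In the WT libraries alone it was 2.69 ± 1.1 (SE) and not called, with an adjusted p of 0.0801. *Ctsc* (ENSMUSG00000030560, chromosome 7 from 88278085 to 88310888), which activates serine proteases of immune cells, had normalized CPM of 603 and 848 in WT and 1431 and 1212 in Cdh2-cKO TdT single positive libraries, and 351, 483 and 3133 in WT and 175, 396 and 218 in Cdh2-cKO double negative libraries. Its CD45+ libraries had 4351, 3858 and 3607 in WT and 4314, 5807 and 4062 in Cdh2-cKO double positive libraries, and 4231, 1959 and 3763 in WT and 3852, 4427 and 4258 in Cdh2-cKO CD45 single positive libraries. Only WT double negative replicate 3 reached the CD45+ range, and the contrast gave 2.40 ± 0.331 (SE; adjusted p = 8.17e-06).

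*Lgmn* (ENSMUSG00000021190, chromosome 12 from 102394084 to 102439813) encodes the asparaginyl endopeptidase that processes cathepsins. It had normalized CPM of 389.5 and 916 in WT and 1845 and 545 in Cdh2-cKO TdT single positive libraries. The double negative libraries had 205, 633 and 2219 in WT and 211, 193 and 296 in Cdh2-cKO. In CD45+ cells it had 3078, 3180.4 and 2298 in WT and 3933, 2313 and 3664 in Cdh2-cKO double positive libraries, and 2442, 713 and 3906 in WT and 2557, 3343 and 3597 in Cdh2-cKO CD45 single positive libraries. Here WT CD45 single positive replicate 2 fell below 3 of the CD45- libraries, and the log2 fold change was 2.14 ± 0.385 (SE; adjusted p = 0.000126), or 2.81 ± 0.289 (SE) without the 3 libraries that stood apart. *Ctsz* (ENSMUSG00000016256, chromosome 2 from 174427493 to 174439039), a carboxypeptidase, had normalized CPM of 418 and 506 in WT and 1201 and 693 in Cdh2-cKO TdT single positive libraries, and 297, 475 and 1532 in WT and 205, 272 and 296 in Cdh2-cKO double negative libraries. Levels in CD45+ cells were 2218, 1610.2 and 2127 in WT and 2802, 3023 and 2685 in Cdh2-cKO double positive libraries, and 2543, 1101 and 1928 in WT and 1951, 2783 and 2416 in Cdh2-cKO CD45 single positive libraries. WT CD45 single positive replicate 2 again fell below both CD45- libraries that stood apart, and the log2 fold change was 2.04 ± 0.251 (SE; adjusted p = 2.18e-06). *Tpp1* (ENSMUSG00000030894, chromosome 7 from 105744847 to 105752207), a tripeptidyl peptidase whose loss causes a neuronal ceroid lipofuscinosis, had normalized CPM of 176 and 227 in WT and 465 and 230.2 in Cdh2-cKO TdT single positive libraries, and 160.4, 218 and 447 in WT and 171, 222 and 271 in Cdh2-cKO double negative libraries. CD45+ libraries showed 473, 432 and 399.6 in WT and 795, 609 and 631 in Cdh2-cKO double positive libraries, and 517, 285 and 496 in WT and 451, 705 and 647 in Cdh2-cKO CD45 single positive libraries. The CD45- libraries that stood apart lay within the CD45+ range, and the contrast gave 1.04 ± 0.189 (SE; adjusted p = 0.000126).

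The 4 other cathepsins higher in CD45+ cells were *Ctsa*, which protects NEU1 and GLB1 as a complex, *Ctsh*, *Ctsd* and *Ctsb*. *Ctsa* had a lowest, median and highest level of 267, 467 and 1437 in CD45- and 762, 2077 and 2595 in CD45+ libraries, with 1.74 ± 0.262 (SE; adjusted p = 2.03e-05). *Ctsh*, an aminopeptidase, had 156, 337 and 767 and 606, 1136 and 1419, with 1.66 ± 0.178 (SE; adjusted p = 4.22e-07), the smallest adjusted p of the members. The aspartic protease *Ctsd* had 671, 1184 and 2629 and 1897, 3335 and 4707, with 1.31 ± 0.226 (SE; adjusted p = 7.99e-05). *Ctsb* was already high in CD45- cells and differed least among the 9, with 2693, 3902 and 7645 and 3694, 7341 and 12875 and a log2 fold change of 0.87 ± 0.207 (SE; adjusted p = 0.00134).

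*Ctsl* (ENSMUSG00000021477, chromosome 13 from 64363214 to 64370306), an endopeptidase that fibroblasts also secrete as a proenzyme, went the other way. It had normalized CPM of 1426 and 1601 in WT and 1954 and 1349.7 in Cdh2-cKO TdT single positive libraries, and 1786, 2122 and 1723 in WT and 2643, 2326 and 2711 in Cdh2-cKO double negative libraries. Among the CD45+ libraries, it had 1108, 1042 and 991 in WT and 1625, 1054 and 1618 in Cdh2-cKO double positive libraries, and 1123, 715 and 1164 in WT and 1303, 2049 and 2608 in Cdh2-cKO CD45 single positive libraries. The double negative libraries were highest as a group, the Cdh2-cKO CD45 single positive libraries overlapped with them, and the log2 fold change was -0.50 ± 0.138 (SE; adjusted p = 0.00427). In the WT libraries alone it was -0.72 ± 0.193 (SE) and called, and in the Cdh2-cKO libraries alone -0.32 ± 0.203 (SE), with an adjusted p of 0.201.

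**Figure D3:**
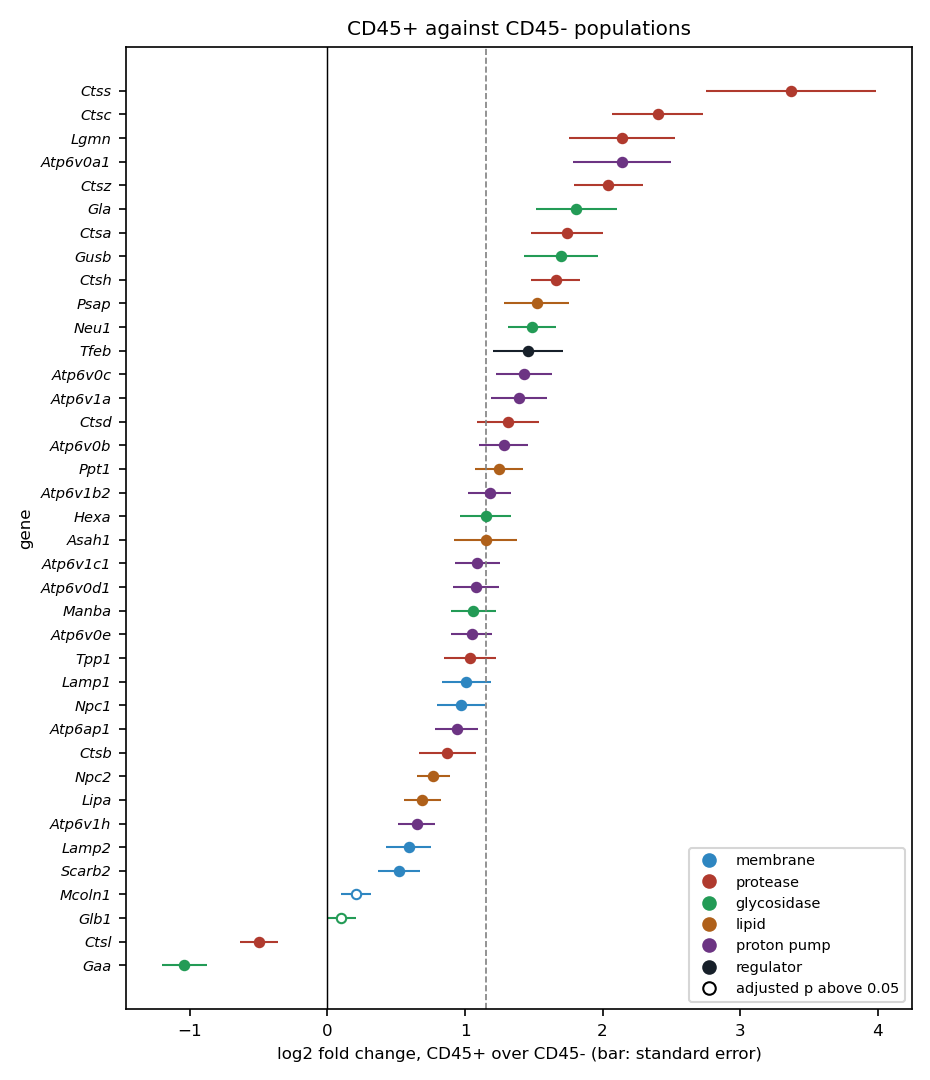
Log2 fold change of each of the 38 genes between CD45+ and CD45- populations (x axis) with its standard error as a bar, ordered by size and coloured by role, with open points for adjusted p above 0.05 and a dashed line at the members' median of 1.15. *Ctss* lies farthest to the right at 3.37, and *Gaa* and *Ctsl* lie below 0 at -1.04 and -0.50.

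Among the 7 glycosidases, 5 were higher in CD45+ cells, *Gaa* was lower and *Glb1* was not called. *Gaa* (ENSMUSG00000025579, chromosome 11 from 119267887 to 119285454), the acid alpha-glucosidase that degrades glycogen, had normalized CPM of 155 and 82.1 in WT and 113 and 105 in Cdh2-cKO TdT single positive libraries, and 91.7, 65.3 and 44.9 in WT and 59.1, 89.9 and 111 in Cdh2-cKO double negative libraries. Its CD45+ libraries had 45.7, 32.7 and 33.4 in WT and 67.1, 76.9 and 47.2 in Cdh2-cKO double positive libraries, and 49.01, 29.5 and 44.8 in WT and 37.96, 52.6 and 39.2 in Cdh2-cKO CD45 single positive libraries. It was the single member with its highest population mean in TdT single positive cells, and the contrast gave -1.04 ± 0.163 (SE; adjusted p = 3.13e-05), or 2.05-fold lower in CD45+ cells. *Glb1* (ENSMUSG00000045594, chromosome 9 from 114401076 to 114474376), the beta-galactosidase, had normalized CPM of 99.3 and 98.8 in WT and 131 and 114 in Cdh2-cKO TdT single positive libraries, and 74.5, 107 and 109.7 in WT and 80.97, 110.3 and 117 in Cdh2-cKO double negative libraries. In CD45+ cells it had 108, 93.5 and 97.7 in WT and 133, 148 and 136 in Cdh2-cKO double positive libraries, and 118, 76.4 and 111 in WT and 95.2, 133 and 111 in Cdh2-cKO CD45 single positive libraries. The ranges overlapped almost throughout and the log2 fold change was 0.10 ± 0.105 (SE; adjusted p = 0.434). *Neu1* (ENSMUSG00000007038, chromosome 17 from 34931253 to 34935953), the sialidase of the complex with CTSA and GLB1, had normalized CPM of 19.8 and 27.5 in WT and 34.2 and 20.7 in Cdh2-cKO TdT single positive libraries, and 9.99, 14.99 and 27.9 in WT and 7.69, 8.56 and 11.9 in Cdh2-cKO double negative libraries. Levels in CD45+ cells were 67.1, 38.03 and 42.8 in WT and 57.7, 66.4 and 53.002 in Cdh2-cKO double positive libraries, and 60.7, 46.99 and 55.2 in WT and 39.04, 45.2 and 44.5 in Cdh2-cKO CD45 single positive libraries. All 12 CD45+ libraries lay above the highest CD45- library, and the log2 fold change was 1.49 ± 0.174 (SE; adjusted p = 1.21e-06).

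The 4 other glycosidases were *Gla* and *Hexa*, which act on glycolipids, *Gusb* and *Manba*. *Gla* had a lowest, median and highest level of 19.03, 31.1 and 103 in CD45- and 100.03, 144 and 241 in CD45+ libraries, with 1.81 ± 0.292 (SE; adjusted p = 4.62e-05). *Gusb* had 51.05, 92.7 and 293 and 111, 391 and 479, with 1.70 ± 0.268 (SE; adjusted p = 3.33e-05). *Hexa* and *Manba* differed less, by 1.15 ± 0.188 (SE; adjusted p = 4.81e-05) and 1.06 ± 0.162 (SE; adjusted p = 2.37e-05).

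All 5 genes of lipid and sphingolipid breakdown were higher in CD45+ cells. *Psap* (ENSMUSG00000004207, chromosome 10 from 60277627 to 60302597), the precursor of the saposins, had normalized CPM of 732 and 1052 in WT and 1610.4 and 641 in Cdh2-cKO TdT single positive libraries, and 666, 811 and 1839 in WT and 602, 554 and 653 in Cdh2-cKO double negative libraries. CD45+ libraries showed 1443, 1999.5 and 1319.9 in WT and 2181, 4543 and 2612 in Cdh2-cKO double positive libraries, and 4095, 1559.9 and 2608 in WT and 2717, 4169 and 3134 in Cdh2-cKO CD45 single positive libraries. The contrast gave 1.52 ± 0.238 (SE; adjusted p = 3.07e-05), with the CD45- libraries that stood apart inside the CD45+ range. *Lipa* (ENSMUSG00000024781, chromosome 19 from 34492318 to 34527474), the acid lipase, had normalized CPM of 153 and 171 in WT and 182 and 124 in Cdh2-cKO TdT single positive libraries, and 123, 131 and 189.7 in WT and 130.3, 106 and 157 in Cdh2-cKO double negative libraries. Among the CD45+ libraries, it had 228, 203 and 169 in WT and 321, 270.2 and 267 in Cdh2-cKO double positive libraries, and 252, 171 and 196 in WT and 179, 316 and 324 in Cdh2-cKO CD45 single positive libraries. The groups overlapped at their edges, and the log2 fold change was 0.69 ± 0.134 (SE; adjusted p = 0.000255). The ceramidase *Asah1*, the thioesterase *Ppt1* and the cholesterol carrier *Npc2* had 1.15 ± 0.23 (SE; adjusted p = 0.000326), 1.25 ± 0.174 (SE; adjusted p = 8.49e-06) and 0.77 ± 0.122 (SE; adjusted p = 3.55e-05).

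All 10 proton pump genes were higher in CD45+ cells, with log2 fold changes from 0.65 to 2.14 and a median of 1.14. *Atp6v0a1* (ENSMUSG00000019302, chromosome 11 from 101009452 to 101063719), the a1 subunit of V0, had normalized CPM of 16.8 and 39.1 in WT and 106 and 27.8 in Cdh2-cKO TdT single positive libraries, and 11.2, 26.6 and 107 in WT and 15.2, 18.9 and 24.02 in Cdh2-cKO double negative libraries. Its CD45+ libraries had 167, 132 and 146 in WT and 244, 145 and 205 in Cdh2-cKO double positive libraries, and 175, 59.5 and 147 in WT and 157, 224 and 156 in Cdh2-cKO CD45 single positive libraries. The 2 CD45- libraries that stood apart had about the same level and lay above WT CD45 single positive replicate 2, and the gene differed most of the pump members, by 2.14 ± 0.357 (SE; adjusted p = 6.09e-05), or 4.42-fold, and by 2.84 ± 0.247 (SE) without the 3 libraries that stood apart. *Atp6v0d1* (ENSMUSG00000013160, chromosome 8 from 105524465 to 105566047), which joins V0 to V1, had normalized CPM of 98.7 and 82.2 in WT and 96.6 and 57.5 in Cdh2-cKO TdT single positive libraries, and 58.8, 61.5 and 107 in WT and 44.2, 43.9 and 57.5 in Cdh2-cKO double negative libraries. In CD45+ cells it had 165, 121 and 134 in WT and 186, 151 and 186 in Cdh2-cKO double positive libraries, and 194, 77.1 and 136 in WT and 123, 170.5 and 168 in Cdh2-cKO CD45 single positive libraries. Only WT CD45 single positive replicate 2 fell below any CD45- library, and the contrast gave 1.08 ± 0.164 (SE; adjusted p = 2.27e-05). *Atp6v0e* (ENSMUSG00000015575, chromosome 17 from 26676396 to 26699644), a small V0 subunit, had normalized CPM of 381 and 409 in WT and 486 and 459.6 in Cdh2-cKO TdT single positive libraries, and 402, 438 and 598 in WT and 453, 356 and 362 in Cdh2-cKO double negative libraries. Levels in CD45+ cells were 678, 983 and 801 in WT and 850.02, 765 and 884 in Cdh2-cKO double positive libraries, and 907, 438 and 1149 in WT and 1049, 949 and 1351 in Cdh2-cKO CD45 single positive libraries. The same held here, with a log2 fold change of 1.05 ± 0.149 (SE; adjusted p = 1.16e-05).

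The proteolipid genes of V0, *Atp6v0b* and *Atp6v0c*, differed by 1.28 ± 0.175 (SE; adjusted p = 7.14e-06) and 1.43 ± 0.204 (SE; adjusted p = 1.19e-05). The second is uncertain to the extent that reads are shared with its pseudogene *Atp6v0c-ps2*, which had 1384 reads against 48438. Of the V1 genes, *Atp6v1a* and *Atp6v1b2*, which form the catalytic ring, differed by 1.39 ± 0.204 (SE; adjusted p = 1.49e-05) and 1.18 ± 0.156 (SE; adjusted p = 5.09e-06), and the stalk gene *Atp6v1c1* by 1.09 ± 0.162 (SE; adjusted p = 1.76e-05). *Atp6v1h* (ENSMUSG00000033793, chromosome 1 from 5083173 to 5162549), a regulatory V1 subunit, had normalized CPM of 107 and 138 in WT and 191 and 129 in Cdh2-cKO TdT single positive libraries, and 124, 124 and 199 in WT and 144, 146 and 146 in Cdh2-cKO double negative libraries. CD45+ libraries showed 188, 304 and 189.6 in WT and 204, 181 and 236 in Cdh2-cKO double positive libraries, and 197, 150.3 and 250.4 in WT and 256, 245 and 329 in Cdh2-cKO CD45 single positive libraries. The ranges overlapped, and it differed least of the pump genes, by 0.65 ± 0.135 (SE; adjusted p = 0.000427). The accessory subunit *Atp6ap1* differed by 0.94 ± 0.158 (SE; adjusted p = 5.92e-05).

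Several pump subunits have more than 1 gene, and the genes of a subunit did not all differ alike between CD45+ and CD45- cells. Of the a subunits, *Tcirg1* (a3) had the highest level per kilobase in each population, with means of 43.5 normalized RPKM in double positive, 34.1 in CD45 single positive, 18.4 in TdT single positive and 12.7 in double negative cells. *Atp6v0a1* had 26.4, 23.4, 7.25 and 5.16 in the same order. *Tcirg1* was higher in CD45+ cells by 1.35 ± 0.162 (SE; adjusted p = 1.7e-06), and *Atp6v0a2* had -0.01 ± 0.151 (SE; adjusted p = 0.956) with means of 3.90 to 5.61 normalized RPKM. *Atp6v0d2*, known from osteoclasts and macrophages, was higher by 2.58 ± 0.54 (SE; adjusted p = 0.000506) but stayed below *Atp6v0d1* in the mean of each population. *Atp6v0e2* was lower in CD45+ cells, with a log2 fold change of -4.61 ± 0.66 (SE; adjusted p = 1.2e-05) at means of at most 1.23 normalized RPKM. *Atp6v0a4*, *Atp6v1b1* and *Atp6v1c2*, known from kidney and other acid-secreting epithelia, did not pass the filter on low counts.

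**Figure D4:**
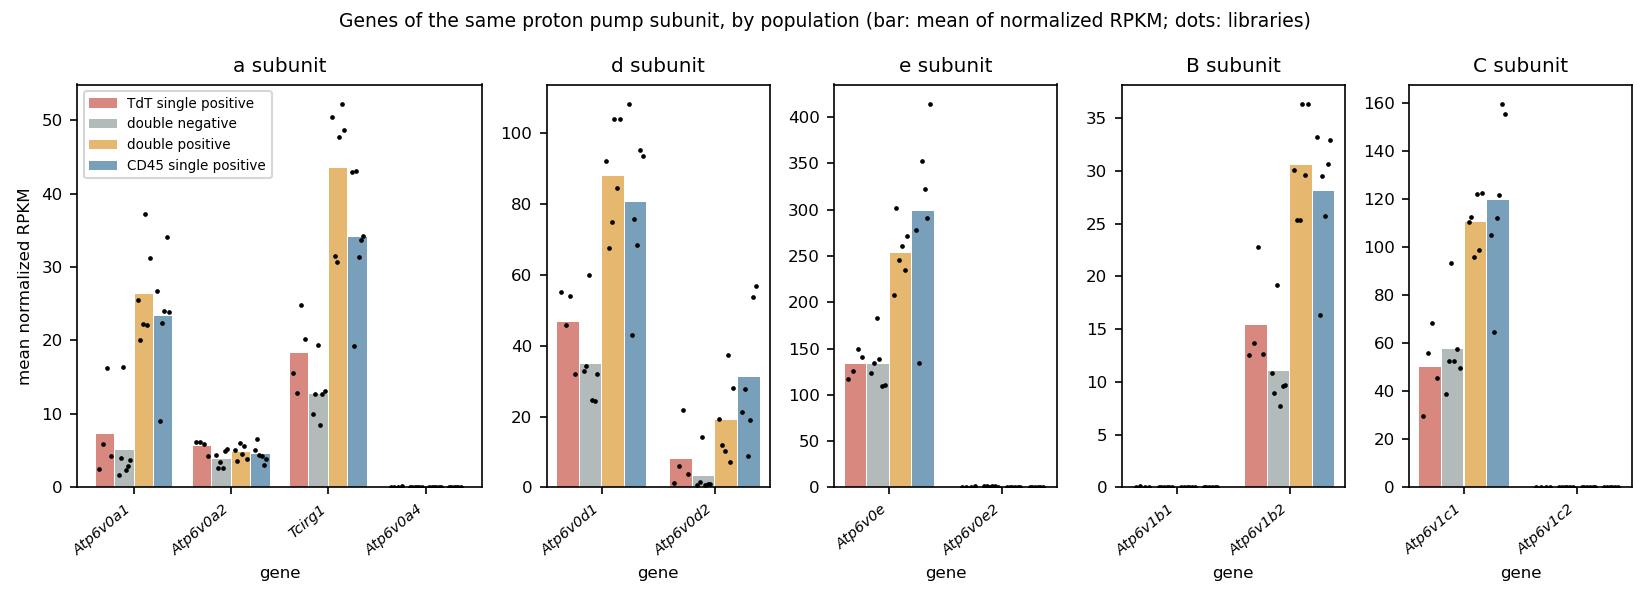
Level per kilobase of genes that encode the same proton pump subunit, as the mean normalized RPKM of each population (bars, over 4 TdT single positive and 6 libraries of each other population) with each library as a dot. *Atp6v0a1* and *Tcirg1* are taller in the CD45+ populations while *Atp6v0a2* is level, and *Atp6v0a4*, *Atp6v1b1* and *Atp6v1c2* lie at the baseline.

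*Tfeb* (ENSMUSG00000023990, chromosome 17 from 47737030 to 47792419) had the fewest reads of the members, with 8 to 110 counts per library. It had normalized CPM of 1.40 and 3.14 in WT and 2.47 and 4.01 in Cdh2-cKO TdT single positive libraries, and 0.896, 0.716 and 3.14 in WT and 0.609, 0.403 and 0.385 in Cdh2-cKO double negative libraries. Among the CD45+ libraries, it had 4.94, 4.00 and 5.73 in WT and 5.77, 4.57 and 5.13 in Cdh2-cKO double positive libraries, and 4.87, 3.99 and 4.75 in WT and 3.18, 3.01 and 2.06 in Cdh2-cKO CD45 single positive libraries. The 3 Cdh2-cKO double negative libraries were lowest, the double positive libraries highest as a group, and the contrast gave 1.46 ± 0.256 (SE; adjusted p = 9.26e-05). Of its relatives, *Tfec* was higher in CD45+ cells by 3.20 ± 0.532 (SE; adjusted p = 6.14e-05), *Mitf* by 0.90 ± 0.188 (SE; adjusted p = 0.00048) and *Tfe3* by 0.37 ± 0.134 (SE; adjusted p = 0.0245).

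**Figure D5:**
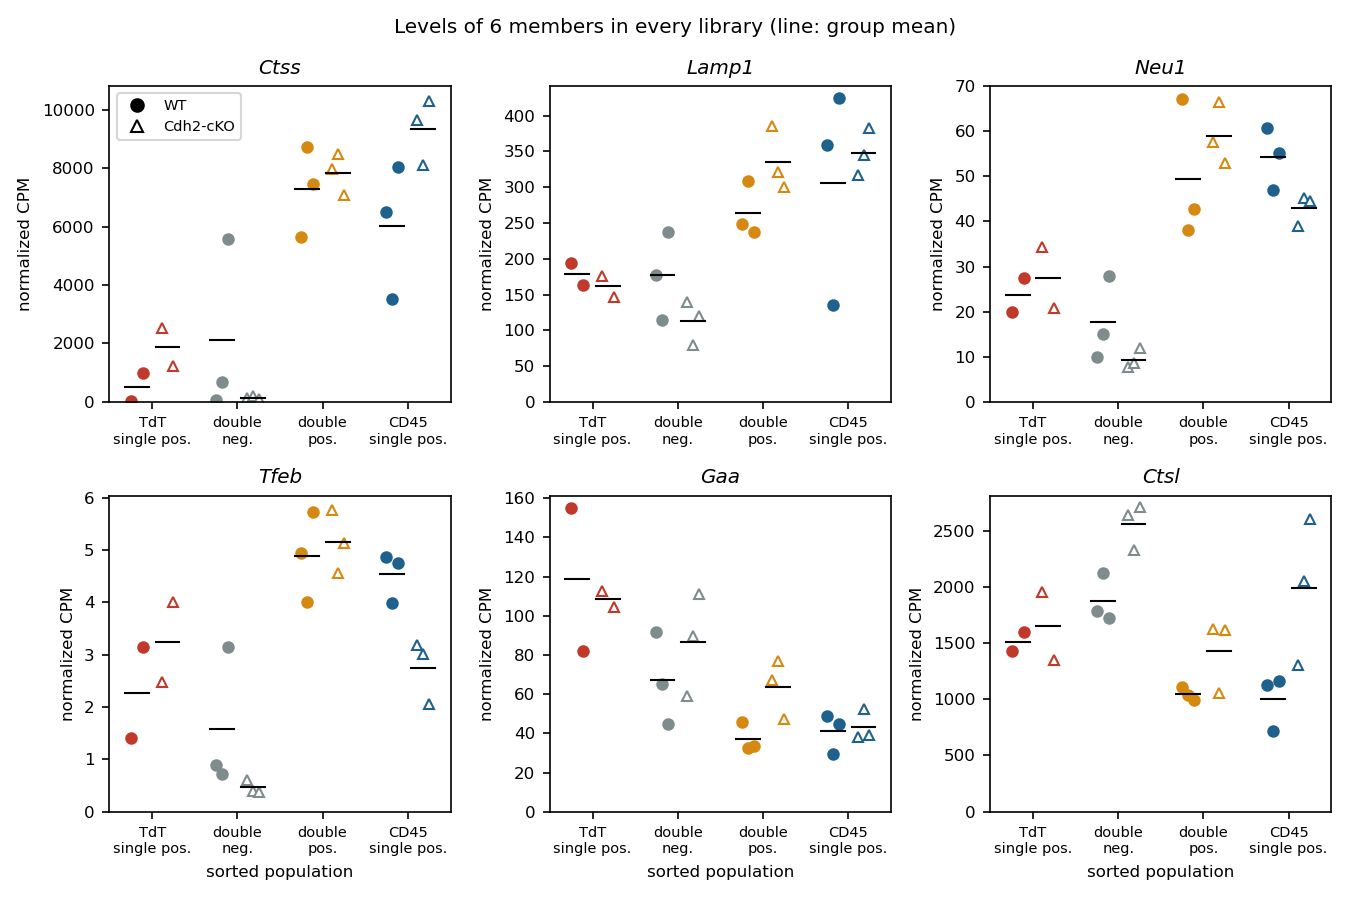
Normalized CPM (y axis, from 0) of *Ctss*, *Lamp1*, *Neu1*, *Tfeb*, *Gaa* and *Ctsl* in every library of the 4 sorted populations (x axis), with filled circles for WT, open triangles for Cdh2-cKO and a line at each group's mean. *Neu1* separates the CD45+ from the CD45- libraries, with 27.9 in WT double negative replicate 3, while *Ctsl* is highest in double negative libraries and *Gaa* in TdT single positive libraries.

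Of 81 further genes of the pathway, 77 were tested, and 56 were higher and 11 lower in CD45+ cells. Their median log2 fold change was 0.86. Over all genes tested, 31.2% were higher and 32.1% lower in this contrast, with a median of 0.03. The same shares apply to each of the lists that follow. Among 30 other hydrolases and cofactors, 23 were higher and 4 lower. The lower ones were *Ctsk*, the collagen-cleaving cathepsin of osteoclasts and fibroblasts (-2.36 ± 0.348 SE, adjusted p = 1.85e-05), *Arsa* (-0.64 ± 0.151 SE, adjusted p = 0.00135), *Smpd1* (-0.73 ± 0.136 SE, adjusted p = 0.000165) and *Aga* (-0.38 ± 0.0976 SE, adjusted p = 0.00255). *Ctsk* had 202 to 1155 normalized CPM in CD45- and 18.1 to 207 in CD45+ libraries. *Gm2a*, the activator of hexosaminidase A, had the largest rise of the called hydrolases and cofactors, by 2.90 ± 0.386 (SE; adjusted p = 5.97e-06), with 107 to 1581 normalized CPM in CD45- and 1623 to 5155 in CD45+ libraries.

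In the delivery list, 5 of 6 genes were higher and *Igf2r* was lower. The mannose 6-phosphate receptors, which carry hydrolases from the Golgi, differed in opposite directions, with log2 fold changes of 0.92 ± 0.146 (SE; adjusted p = 3.29e-05) for *M6pr* and -2.34 ± 0.291 (SE; adjusted p = 2.86e-06) for *Igf2r*. *Igf2r* had 39.97 to 175 normalized CPM in CD45- and 6.41 to 43.8 in CD45+ libraries. Of 11 other lysosomal membrane proteins tested, 7 were higher and 2 lower. The lower ones were *Cd63* (-0.87 ± 0.163 SE, adjusted p = 0.000181) and *Laptm4a* (-1.13 ± 0.161 SE, adjusted p = 1.11e-05), and the largest rises were those of the leukocyte genes *Laptm5* (3.16 ± 0.611 SE, adjusted p = 0.00025) and *Cd68* (3.06 ± 0.637 SE, adjusted p = 0.000482). *Laptm5* is also 1 of the 5 leukocyte markers used here. Of the 16 genes of TFEB relatives and nutrient sensing, 11 were higher, and *Rragb* was lower (-1.87 ± 0.741 SE, adjusted p = 0.036). Of the 4 cathepsin inhibitors, *Cst3*, *Cst7* and *Cstb* were higher and *Cst6* was lower (-3.69 ± 0.475 SE, adjusted p = 3.88e-06). Of the 10 other pump subunit genes tested, 7 were higher and 2 lower, the second being *Atp6v1g2* (-0.80 ± 0.305 SE, adjusted p = 0.029).

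Within CD45- cells, 2 of the 38 members were higher in TdT single positive than in double negative cells, *Tfeb* and *Neu1*, and 0 were lower. Over all genes tested, 0.839% were higher and 1.39% lower. An unadjusted p under 0.05 was found for 6 members and 2894 of all genes tested. The members' median log2 fold change was 0.27, against -0.01 over all genes. That median did not keep its direction, being -0.34 in the WT and 0.76 in the Cdh2-cKO libraries alone, 0.05 without Cdh2-cKO TdT single positive replicate 1 and 0.51 without WT double negative replicate 3, with 1 to 27 members under an unadjusted p of 0.05 over all alternatives. *Tfeb* differed by 1.66 ± 0.37 (SE; adjusted p = 0.0334), with 1.40 to 4.01 normalized CPM in the 4 TdT single positive and 0.385 to 3.14 in the 6 double negative libraries. The groups overlapped through WT double negative replicate 3, at 3.14. *Neu1* differed by 0.99 ± 0.246 (SE; adjusted p = 0.0462), with 19.8 to 34.2 and 7.69 to 27.9, and overlapped through the same library. *Scarb2* came next and was not called, with a log2 fold change of 0.78 ± 0.22 (SE; adjusted p = 0.0714). All 4 TdT single positive libraries (26.9 to 43.8) lay above all 6 double negative libraries (12.5 to 26.5). The closest libraries had 26.86 and 26.51, and how many of all genes separate these groups was not counted.

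These calls rested on few libraries. With each of the 22 libraries left out in turn, between 0 and 6 members were called, *Tfeb* in 16 of the fits and *Neu1* in 5. None were called without WT TdT single positive replicate 2, Cdh2-cKO TdT single positive replicate 1 or 2, WT double negative replicate 2, or Cdh2-cKO double negative replicate 1 or 2, and 6 without WT double negative replicate 3. The number called over all genes, in either direction, varied as well between these 22 fits. It was lowest without Cdh2-cKO TdT single positive replicate 1 (24 of 14979 genes) and highest without WT double negative replicate 3 (803 of 15004). Without WT TdT single positive replicate 2 it was 459 of 14926. Leaving out WT CD45 single positive replicate 2 and WT double negative replicate 3 together gave 13 members, all higher (5.41% of all genes), and leaving out Cdh2-cKO TdT single positive replicate 1 as well gave 10 (3.91%). Those 10 were *Tfeb*, *Neu1*, *Scarb2*, *Ctsc*, *Ctsh*, *Ctsz*, *Hexa*, *Gusb*, *Manba* and *Atp6v1b2*. In the Cdh2-cKO libraries alone 13 members were higher (7.73%), and in the WT libraries alone 0 (0%), and the difference between the genotypes in this effect was not tested.

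Macrophage markers differed between the same libraries. Their sum was 168 and 5857 normalized CPM in WT and 12987 and 5331 in Cdh2-cKO TdT single positive libraries. The double negative libraries had 287, 3524 and 19092 in WT and 651, 778 and 494 in Cdh2-cKO. Their part in the difference was not tested.

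Within CD45+ cells, 0 of the 38 members differed between double positive and CD45 single positive cells by edgeR's test, and 0 had an unadjusted p under 0.05. Of all genes 0.00666% were called, which is 1 gene, and 561 had an unadjusted p under 0.05. The voom test and DESeq2 also called 0 members, with 6 of all genes called by DESeq2. The members' log2 fold changes had a median of 0.09, which was -0.04 without WT CD45 single positive replicate 2 and -0.02 with the voom test. Those with the smallest p were *Tfeb* at 0.51 ± 0.324 (SE; adjusted p = 1), *Psap* at -0.45 ± 0.305 (SE; adjusted p = 1) and *Atp6v0e* at -0.22 ± 0.194 (SE; adjusted p = 1). *Psap* ranged from 1319.9 to 4543 normalized CPM in double positive and from 1559.9 to 4169 in CD45 single positive libraries, so that the groups overlapped. By population mean, 24 members were highest in double positive and 12 in CD45 single positive cells, and WT CD45 single positive replicate 2, the lowest CD45+ library for most members, is in the second mean.

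Between the genotypes, 0 of the 38 members were called over the 4 populations by edgeR's test, the voom test or DESeq2, against 0% of all genes by edgeR's test and 0.799% (120 genes) by DESeq2. An unadjusted p under 0.05 was found for 3 members and 1703 of all genes tested. *Ctsl* had the smallest p, with a log2 fold change of 0.50 ± 0.139 (SE; adjusted p = 0.293) in the libraries labelled Cdh2-cKO against WT. Its values, given above, were higher in the Cdh2-cKO than in the WT mean of each population. *Glb1* and *Tpp1* followed with 0.26 ± 0.105 (SE; adjusted p = 0.39) and 0.40 ± 0.184 (SE; adjusted p = 0.433). The members' median was 0.15, against -0.02 over all genes, and it was 0.01 without Cdh2-cKO TdT single positive replicate 1, 0.06 without WT double negative replicate 1, 0.08 without WT double negative replicate 2 or WT CD45 single positive replicate 2, and 0.24 without WT double negative replicate 3.

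The CD45 effect did not pass the threshold as a difference between the genotypes for any member, by edgeR's test, the voom test or DESeq2, nor for any gene tested by edgeR's test (0%), while DESeq2 called 30 of all genes. The median over the members was 0.38 toward a larger CD45 effect in the libraries labelled Cdh2-cKO, with 2 members and 1166 of all genes under an unadjusted p of 0.05. Without WT CD45 single positive replicate 2 and WT double negative replicate 3 it was -0.01, without the latter alone 0.10, and without Cdh2-cKO TdT single positive replicate 1 0.57. *Lipa* had the smallest p, with 0.59 ± 0.264 (SE; adjusted p = 0.63), from CD45 effects of 0.39 ± 0.182 (SE) in the WT and 0.95 ± 0.188 (SE) in the Cdh2-cKO libraries alone. *Atp6v0d1* had 0.69 ± 0.32 (SE; adjusted p = 0.641) and *Psap* 0.89 ± 0.457 (SE; adjusted p = 0.657). In the Cdh2-cKO libraries alone 35 members were higher and 1 lower in CD45+ cells (26.4% of all genes higher), and in the WT libraries alone 24 were higher and 2 lower (15.7%). The 10 members called over both genotypes but not in the WT libraries alone were *Ctss*, *Lgmn*, *Asah1*, *Hexa*, *Atp6v0d1*, *Lamp1*, *Ctsb*, *Lamp2*, *Lipa* and *Scarb2*, with log2 fold changes there of 0.31 to 2.69. Both WT libraries that stood apart are in that set.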

How the data were processed

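RNA-seq libraries of sorted tumor stroma were made from amplified cDNA (SMARTer kit). Per the labels and the study's methods, the authors used STAR 2.0.4b for alignment to GRCm38 and featureCounts for counting, which kept reads with a unique alignment to 1 Ensembl gene. The counts they deposited are raw. The deposited CPM are the counts scaled to each library's total, and the deposited RPKM are the CPM per kilobase of exon, both computed by the authors and used here only to check the counts. Whether counting used strand is not given in the sources used here, and 14 of the 38 members overlap another gene.

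The counts were analysed in R 4.3.3. A gene had to exceed 1 CPM in 2 or more libraries, and 355 rRNA genes were excluded, which left 15018 genes. Quasi-likelihood fits over all 22 libraries were made with edgeR 4.0.16 and TMM factors, with a mean per group (8 groups). A call needed p of at most 0.05 after Benjamini-Hochberg adjustment across the 15018 genes. Standard errors were derived from the quasi-likelihood test. The steps were tested on simulated data. Replicates differed by 49.7 to 408.9 times counting noise in chi-square over its degrees of freedom, so no library was counted as a duplicate. The labels call them biological replicates of 10 inoculated mice and do not tie libraries to mice. If these were all the mice, some of the 22 libraries must share a mouse. The main fit treated all 22 libraries as independent, so p-values measure the spread between these libraries and not between mice. Counting intervals were not used, and the reads carry no molecular identifiers.

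Alternatives were limma's voomWithQualityWeights (limma 3.58.1), which the study's methods name, DESeq2 1.42.0, RLE factors, no filter on low counts, a log2 fold change of at least 2, the replicate number as a block, each library left out, each genotype alone, and without the libraries that stood apart. Of the last, leaving out 3 libraries together was chosen after seeing the data. The members, the other gene lists and the marker lists were chosen with earlier results of these data known. Values in every library are given for *Lamp1*, *Lamp2*, *Tfeb*, *Mcoln1*, the 5 members with the largest and the 5 with the smallest log2 fold change among those called between CD45+ and CD45- populations, and the 3 with the smallest p in each other contrast. The other 18 members are given by range, fold change or count. Genes of the further lists were named after their values were seen. Gene positions on GRCm38 are those deposited with the counts, and gene symbols follow the GENCODE M21 annotation.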

Additional observations from a re-analysis of the deposited data

How the results depend on the processing

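Of the 6 counts of members, those within CD45+ cells, between genotypes and for the difference of the CD45 effect were 0 under every alternative run, and the 34 higher and 2 lower members between CD45+ and CD45- cells stayed within 1.5 times except where given here. A log2 fold change of at least 2 left 5 higher and 0 lower members between CD45+ and CD45- cells, and 0 members with TdT within CD45- cells. In the Cdh2-cKO libraries alone, 1 member was lower in CD45+ cells. The count within CD45- cells, 2 members, was 4 with the voom test, 0 in the WT and 13 in the Cdh2-cKO libraries alone, 13 without WT CD45 single positive replicate 2 and WT double negative replicate 3, 10 without Cdh2-cKO TdT single positive replicate 1 as well, and between 0 and 6 with each library left out in turn. The cause was not tested, though some of these fits hold fewer libraries. Over all 15018 genes and both directions, 335 were called within CD45- cells by the main test and 622 by the voom test. With the replicate number as a block it was 152, and with each library left out between 24 and 803. Same-numbered libraries of different groups had deviations correlated between -0.297 and 0.595, with 10 of 30 pairs over 0.1, so the numbers were not taken as pairs. With the replicate number as a block, 1 member, *Tfeb*, was called within CD45- cells, and the other 5 counts did not change. Of 25 log2 fold changes, each of a named member in the contrast that named it, 0 changed sign, 32 values over the alternatives lost the call and 8 gained it. Fold changes in other contrasts did change sign, such as that of *Ctss* with TdT within CD45- cells, between -2.07 and 3.80. *Tfeb* with 8 counts in its lowest library is the member that depth limits most.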
